A study of Homo sapiens with 6 samples.

Results

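Polycomb repressive complex 2 (PRC2) is the enzyme complex that methylates lysine 27 of histone H3, and the peaks at and over 10 of its genes are described here. The genes were listed by name as PRC2 subunits, by a rule that uses no measured value although results of these data were known when it was set, and they were 10 of the 19970 protein-coding genes of GENCODE release 44 on the 23 chromosomes that held peaks. 6 encode the core, namely the catalytic subunits EZH1 and EZH2, the H3K27me3 reader EED, the scaffold SUZ12, and the histone-binding proteins RBBP4 and RBBP7. The accessory subunits were MTF2 and PHF19 of the PRC2.1 form, and JARID2 and AEBP2 of the PRC2.2 form. In cells, EZH2 and EED are classically described as E2F target genes, EZH2 is abundant in dividing cells, and EZH1 is the paralogue found in resting cells. GSK126 blocks the catalytic site of EZH2 and does not remove the protein.

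The authors performed ChIP-seq, which sequences the DNA pulled down with an antibody, in MDA-MB-231, an established line of human triple-negative breast cancer cells. E2F1, the transcription factor that drives entry into S phase, was profiled in untreated cells, in cells exposed to the solvent DMSO for 72 h, and in cells exposed to GSK126 at 1 µM for 72 h. The trimethyl mark H3K27me3, the product of PRC2, was profiled after 24 h of lentiviral transduction and 72 h in puromycin at 2 µg/ml, in cells carrying either a control shRNA or shE2F1, which targets E2F1. Each of these 5 groups held 1 library, so differences between conditions had no replicate check and no p-value is given. An input of untreated cells was not analysed here. Neither the knockdown of E2F1 nor the block of EZH2 was visible in these data, since no expression was measured and H3K27me3 was not profiled under GSK126.

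The lists held 1056, 15703 and 14276 E2F1 peaks in untreated, DMSO and GSK126 cells, and 123957 and 135683 H3K27me3 peaks in control shRNA and shE2F1 cells. The lowest background, the fragments that a base of the genome collected by chance, was 0.668, 1.82 and 1.70 in the 3 E2F1 lists, so the untreated library was the shallowest by this measure. A gene had E2F1 at its promoter when a summit lay within 1000 bp of any of its transcription start sites (TSSs), and H3K27me3 when a broad peak overlapped that window by at least 1 bp. The fold is the authors' enrichment over local background, at the summit of an E2F1 peak or averaged over an H3K27me3 peak. Intervals are exact Poisson 95% intervals on the fragments at a summit and cover counting error only. A gene with no peak was below the authors' calling threshold, which does not make its signal 0.

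E2F1 summits at 7 of the 10 promoters in GSK126 cells lay within 150 bp of an E2F motif. These sequences are shown for the position of the motif against the summit. The 150 bp reach set which windows are printed, and no share over all promoter peaks was computed at that reach. The peak counts and folds below do not use these sequences. The motif was TTSSCGC, in which S is C or G, and it was searched on both strands. Each window reads 5′ to 3′ on the strand of the gene (GRCh38), with the motif in capitals. The summit and the nearest match with 40 bp on either side are shown, except at RBBP4 and MTF2, where the match lies in a UTR exon and only a short site is given.
EZH2, chr7:148884668-148884879, minus strand: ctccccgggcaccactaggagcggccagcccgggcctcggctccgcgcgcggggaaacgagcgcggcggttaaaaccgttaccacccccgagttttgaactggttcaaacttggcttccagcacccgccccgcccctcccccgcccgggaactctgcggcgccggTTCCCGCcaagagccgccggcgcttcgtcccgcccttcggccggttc
EED, chr11:86245220-86245306, plus strand: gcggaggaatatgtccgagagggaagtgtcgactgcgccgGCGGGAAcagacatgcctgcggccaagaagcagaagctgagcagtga
RBBP4, chr1:32651157-32651185, plus strand: ggctgatgTTGGCGCGAAggtgcgcgagt
EZH1, chr17:42745109-42745205, minus strand: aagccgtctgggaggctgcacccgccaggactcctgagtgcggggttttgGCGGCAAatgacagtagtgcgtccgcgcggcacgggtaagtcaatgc
SUZ12, chr17:31936687-31936865, plus strand: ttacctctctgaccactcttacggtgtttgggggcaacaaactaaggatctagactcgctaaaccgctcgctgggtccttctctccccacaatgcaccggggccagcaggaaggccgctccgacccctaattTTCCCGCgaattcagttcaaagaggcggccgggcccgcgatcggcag
MTF2, chr1:93079277-93079305, plus strand: accggcagtccGCGGGAAaccaaaatggc
PHF19, chr9:120877294-120877390, minus strand: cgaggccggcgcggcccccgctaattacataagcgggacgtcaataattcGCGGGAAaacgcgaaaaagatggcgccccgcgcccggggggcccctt

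The motif was closest at EED, where the match covered the GSK126 summit. At RBBP4 a pair of matches on opposite strands overlapped and the nearer lay 5 bp from the summit. The match lay 10 bp from the summit at EZH1 and at PHF19, 15 bp at MTF2 and 92 bp at SUZ12. EZH2 carried its nearest match 125 bp away, outside the 100 bp used for counting, although its peak held 5 matches. Counted within 100 bp, 6 of the 10 members had a match, whereas 30.9% of the 9786 GSK126 peaks at promoters of protein-coding genes had one. In windows of the same 201 bp centred on the canonical TSS of each of the 19970 genes, the share was 12.3%. In DMSO cells 5 of 9 members had a match against 35.8% of promoter peaks, and in untreated cells 2 of 4, EED and RBBP4, against 55.1%. RBBP7, JARID2 and AEBP2 had no match within 150 bp of the GSK126 summit, which says only that these letters were not in those windows. GC content over the 201 bp ranged among members from 51.2% at SUZ12 to 76.6% at PHF19, and the median over GSK126 promoter peaks was 70.1%.

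E2F1 promoter peaks were listed at more PRC2 genes in each successive list, as they were over all protein-coding genes. In untreated cells 4 of 10 had a promoter peak (EZH2, EED, RBBP4 and RBBP7), all of them core genes, and 5.85% of protein-coding genes had one. In DMSO cells all members but AEBP2 had a peak, which made 9 of 10 beside 33.5% of genes. In GSK126 cells 10 of 10 had a peak beside 51.5% of genes. The 4 genes bound in untreated cells were bound in all 3 lists, as were 5.71% of genes. The number of peaks moved with the depth between the untreated and the other lists, and its part in these counts was not tested. By the lowest background alone, DMSO and GSK126 were close, while the median number of fragments at a summit was 17 and 30. Of the members without an untreated peak, MTF2 had its nearest one 51.9 kb from a TSS and the others had theirs 125 kb away or more.

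**Figure D1:**
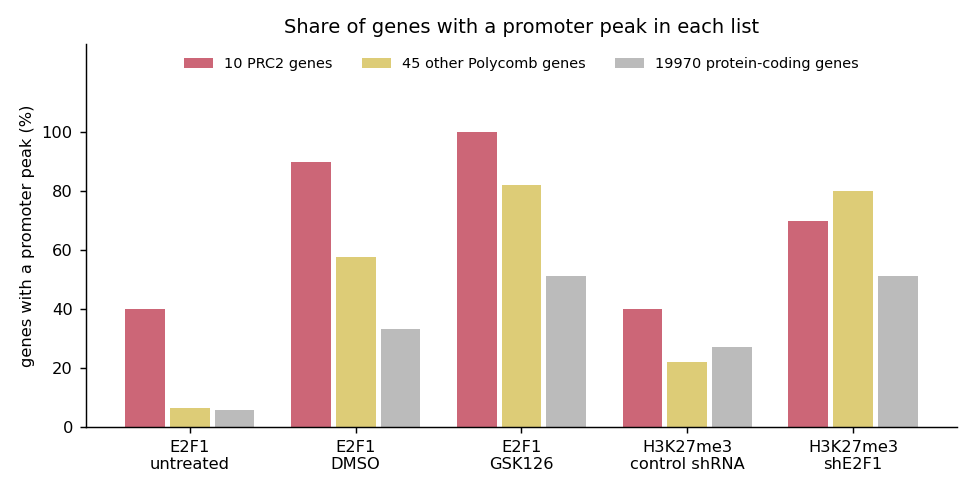
Share of genes with a promoter peak in each of the 5 lists, for the PRC2 genes, other Polycomb genes and protein-coding genes of GENCODE release 44; the bars start at 0 and each list is 1 library. The PRC2 genes stand at 40%, 90% and 100% in the E2F1 lists, above the grey bars of protein-coding genes at 5.85%, 33.5% and 51.5%. The 45 other Polycomb genes stand at 6.67%, 57.8% and 82.2%.

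EZH2 carried one of the strongest E2F1 promoter peaks of the genome in every list. Its fold was 31.3 (25.2 to 38.4) in untreated, 48.7 (43.4 to 54.6) in DMSO and 96.0 (88.2 to 104) in GSK126 cells. These values placed EZH2 at rank 8 of the 1168 genes with a promoter peak in untreated cells, rank 7 of 6698 in DMSO and rank 3 of 10279 in GSK126. The summits rested on 89, 298 and 556 fragments and lay 541, 548 and 548 bp upstream of the canonical TSS, outside the gene body. The peak was 809, 2189 and 2735 bp wide. The gene for RNU7-20P, a small nuclear RNA locus on the opposite strand, starts 143 bp from the nearest of the 19 EZH2 TSSs. Its distance from these summits was not measured, and whether the peak belongs to EZH2 alone was not tested.

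The other core genes were weaker than EZH2 in every list. EED had folds of 10.7, 19.3 and 30.5 in untreated, DMSO and GSK126 cells, with summits 478 to 511 bp downstream of the canonical TSS and inside a coding exon. RBBP4 had folds of 9.12, 22.8 and 34.3, with summits within 49 bp of the canonical TSS. Among genes with a promoter peak, these were the top 3.89% (EED) and 2.86% (RBBP4) in GSK126 cells. ZBTB8OS, a protein-coding gene on the opposite strand, starts 239 bp from a TSS of RBBP4 and shares that peak, and the lncRNA ENSG00000288809 starts 77 bp from a TSS of EED. RBBP7 was bound in all 3 lists at folds of 6.78, 5.96 and 10.8, and the intervals of the 3 values overlapped. EZH1 had no untreated peak and folds of 7.81 in DMSO and 18.2 in GSK126 cells, with the summit 125 to 136 bp upstream of its canonical TSS. The microRNA gene MIR6780A starts 768 bp from 1 of the 16 EZH1 TSSs, and its distance from this summit was not measured. SUZ12 likewise had 6.91 in DMSO and 12.8 in GSK126 cells, 266 to 280 bp upstream.

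The 4 accessory members had no E2F1 peak in untreated cells. MTF2, a reader of H3K36 methylation that recruits PRC2.1 to CpG islands, had folds of 8.63 in DMSO and 12.4 in GSK126 cells at its TSS. PHF19, its paralogue, had 11.1 and 20.6, with the DMSO summit 610 bp downstream and the GSK126 summit 162 bp upstream of the canonical TSS in peaks that overlapped each other. A further PHF19 peak at an internal promoter, fold 7.01, was listed in GSK126 cells only. JARID2, the PRC2.2 subunit that binds nucleosomes and links PRC2 to ubiquitinated H2A, was the weakest in DMSO at a fold of 2.97, rank 6585 of 6698 genes. In GSK126 cells JARID2 had 3.90 at the same place and 6.05 at a second promoter 2688 bp downstream. The antisense lncRNA JARID2-AS1 starts 221 bp from a JARID2 TSS. AEBP2, a zinc finger subunit of PRC2.2, was bound in GSK126 cells alone, at 6.29 (4.33 to 8.84) in a coding exon, and its nearest DMSO peak was 274 kb away.

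In GSK126 cells the order of fold was EZH2, RBBP4, EED, PHF19, EZH1, SUZ12, MTF2, RBBP7, AEBP2 and JARID2. EZH2 was separated from RBBP4 (30.4 to 38.5), whereas every other pair of neighbours in that order had overlapping counting intervals. 8 of the 10 members lay above the median fold of 7.78 over genes with a GSK126 promoter peak. In DMSO cells 7 of 9 lay above the median of 6.03, and in untreated cells 3 of 4 above 8.28.

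**Figure D2:**
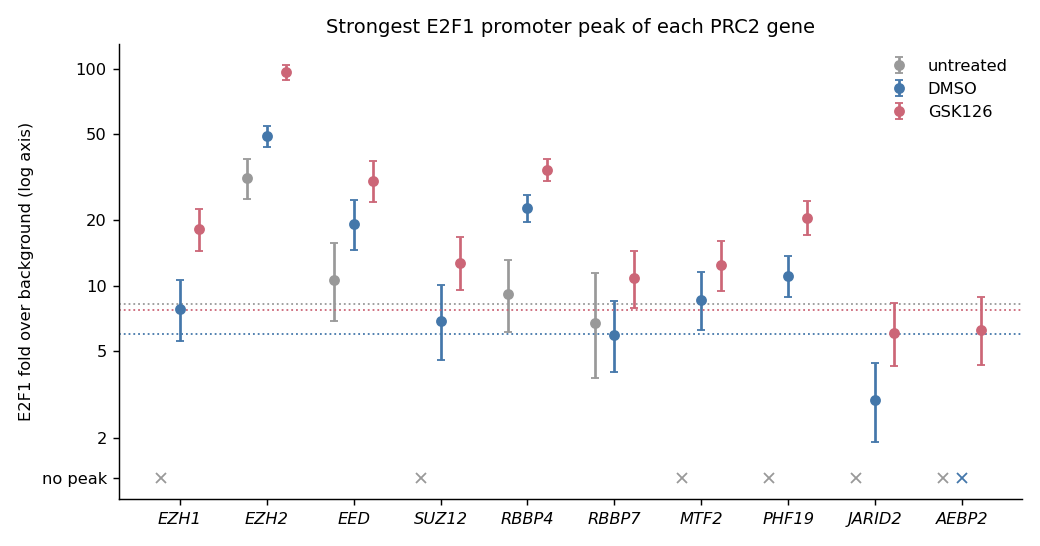
E2F1 fold over background at the strongest promoter peak of each PRC2 gene in untreated, DMSO and GSK126 cells, on a log axis; points are single libraries, bars are exact Poisson 95% counting intervals, crosses mark genes without a peak and dotted lines the median over all genes with a promoter peak in that list. EZH2 rises above the other members in every list, at 31.3, 48.7 and 96.0.

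Beyond promoters, EED alone among the members had an E2F1 peak over its gene body. It lay in an intron, 1482 bp from the nearest EED TSS in DMSO and 1465 bp in GSK126 cells, just outside the promoter window and far from the canonical TSS. Its fold was 9.37 and 18.3, and no annotated TSS of any gene lay within 1000 bp of it. Of 10 annotated pseudogenes of the members, SUZ12P1 (chr17:30731886-30776402) was the only one with E2F1, at folds of 9.91 in DMSO and 12.3 in GSK126 cells. SUZ12P1 is a partial duplicate of SUZ12, so reads from near-identical stretches could be placed at either copy, and the lncRNA ENSG00000290928 starts within 1000 bp of the same summits.

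The fold at PRC2 promoters was higher in GSK126 than in DMSO cells, as at nearly all promoters. The log2 ratio of fold was positive at 9 of the 9 members with a peak in both lists, and at 97.2% of the 6539 genes with both. The median over members was 0.89 and over all these genes 0.73. A ratio of at least 2-fold was seen at 2 of 9 members, EZH1 (log2 ratio of fold 1.22) and JARID2 (1.03), beside 18.4% of genes, and a fall of that size at 0 members and 0.0% of genes. JARID2 compares different promoters, and with overlapping peaks alone its log2 ratio was 0.40. EZH2 had 0.98, SUZ12 and PHF19 0.89 each, RBBP7 0.86, EED 0.67, RBBP4 0.59 and MTF2 0.53. The PHF19 ratio compares summits on opposite sides of the canonical TSS, in peaks that overlap.

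On the scale of summit fragments over the lowest background, the log2 ratio at EZH2 was 1.00 with an exact binomial 95% interval from 0.79 to 1.20. The median over all 6539 genes on that scale was 0.77, and that over members was 0.72. EZH2 was the only member of 9 whose interval lay above the median of all genes, with no adjustment over the 9. Its ratio was not the largest. EZH1 had 1.25 (0.67 to 1.85) and SUZ12 1.13 (0.41 to 1.88), with wider intervals from fewer fragments. The fragments in GSK126 and DMSO cells were 82 and 37 at EZH1, 51 and 25 at SUZ12, and 556 and 298 at EZH2. The intervals of RBBP7 (0.00 to 1.46) and MTF2 (-0.06 to 1.16) reached 0 or below, and those of the other 7 members lay above 0. That of JARID2 (0.00 to 1.64) compares different promoters, and at the place bound in both lists its ratio was 0.39 (-0.47 to 1.27), from 27 and 22 fragments. That of PHF19 (0.26 to 1.09) compares different summits within overlapping peaks. With 1 library in each condition, the treatment and the library cannot be told apart.

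**Figure D3:**
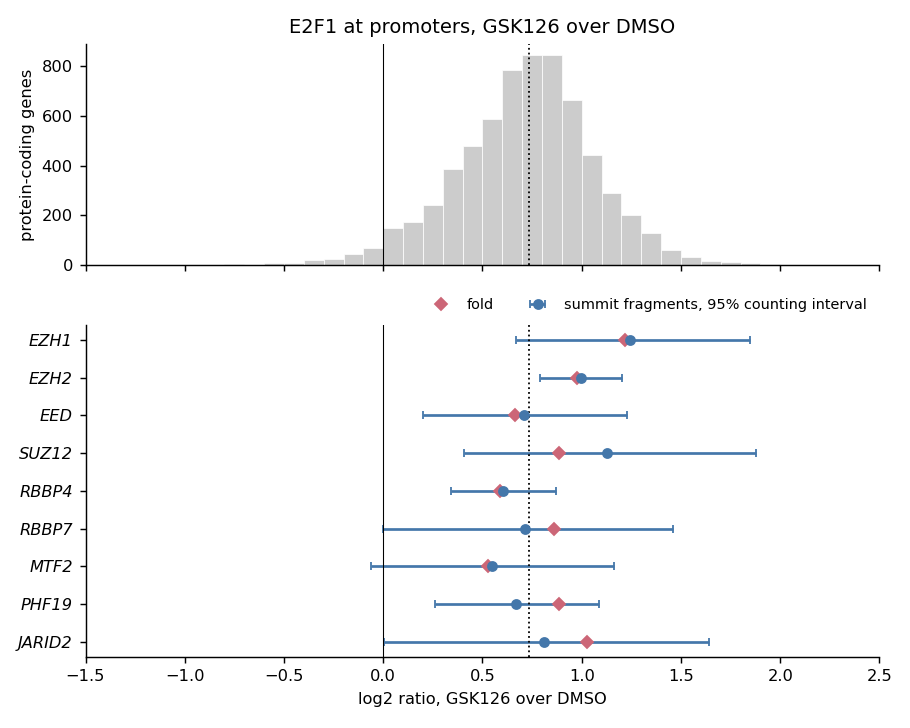
Upper panel, number of protein-coding genes by the log2 ratio of E2F1 promoter fold, GSK126 over DMSO; lower panel, the same ratio of fold (diamonds) and the ratio of summit fragments with its exact binomial 95% counting interval (circles) for the 9 PRC2 genes with a peak in both lists. The dotted line marks the median fold ratio of all genes, 0.73, and the members fall on both sides of it.

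H3K27me3, the mark that PRC2 makes, was found at the promoters of some PRC2 genes. In control shRNA cells 4 of 10 had a peak (EZH2, EED, MTF2 and JARID2), beside 27.1% of genes, and in shE2F1 cells 7 of 10 (with EZH1, RBBP4 and AEBP2 added), beside 51.2%. The mark was thus listed in shE2F1 cells only at 3 of 10 members, close to the 26.0% of all genes, and in control shRNA cells only at 0, beside 1.94%. All members had E2F1 in GSK126 cells, and of the genes with E2F1 there 59.5% had the mark in shE2F1 cells. Split by E2F1 in untreated cells, the mark was gained at 1 of 4 bound members, RBBP4, where 42.9% of bound genes gained it. It was gained at 2 of 6 unbound members, EZH1 and AEBP2, where 25.0% of unbound genes gained it. These shares, like the 26.0%, include genes already marked in control shRNA cells, which could not gain the mark. EZH2 and EED among the bound members, and MTF2 and JARID2 among the unbound, were such genes. SUZ12, RBBP7 and PHF19 had no H3K27me3 at a promoter in either list, and their nearest peaks were 65.0 kb away or more.

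The gained call depended on the threshold. The folds of the 3 gained peaks were 2.81 at EZH1, 3.30 at RBBP4 and 3.18 at AEBP2, with −log10 q of 1.63, 4.51 and 2.35, and the median promoter fold of the list was 3.22. By q they ranked 56482 (EZH1), 1812 (RBBP4) and 11489 (AEBP2) among the 135683 peaks of the list. When a −log10 q of at least 5 was required in both lists, none of them remained. The mark was then seen at JARID2 in control shRNA cells, and at EZH2, EED, MTF2 and JARID2 in shE2F1 cells. The genes counted as gained became EZH2, EED and MTF2, again 3 of 10 members, beside 6.64% of all genes at that threshold. These 3 were marked in both lists, and their control shRNA peaks fell under the threshold at −log10 q of 4.61, 3.54 and 2.14. AEBP2 also had a control shRNA peak just outside the promoter window, 1850 bp from its nearest TSS, with a fold of 3.31.

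At the 4 promoters marked in both lists the fold was higher in shE2F1 cells. JARID2 had 5.25 in control shRNA and 7.90 in shE2F1 cells, the largest values among the members, and its second promoter had 3.16 and 4.25. EED had 4.62 and 6.31, EZH2 3.51 and 4.59, and MTF2 3.08 and 4.27. The log2 ratios of these folds were 0.59, 0.45, 0.39 and 0.47, whereas the median over the 5025 genes marked in both lists was -0.01, and 48.4% of those genes were above 0. Among the 2048 of these genes that had E2F1 in GSK126 cells, as the 4 members did, the median was 0.24 and 71.9% were above 0. The fold of a broad peak is an average over its width, and widths differed between lists, so these ratios carry no counting interval.

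**Figure D4:**
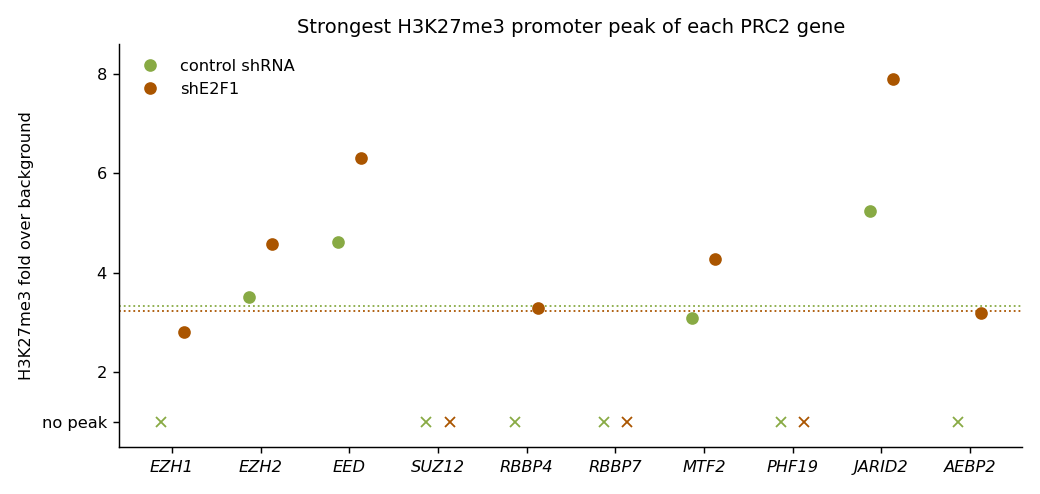
H3K27me3 fold over background at the strongest promoter peak of each PRC2 gene in control shRNA and shE2F1 cells; points are single libraries, crosses mark genes without a promoter peak, and dotted lines the median over genes with a promoter peak in that list (3.34 and 3.22). The points of EZH1, RBBP4 and AEBP2 appear in shE2F1 cells only and lie at folds of 2.81, 3.30 and 3.18.

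The marked stretches were short. All 5 control shRNA and all 8 shE2F1 promoter peaks of the members overlapped an E2F1 peak of GSK126 cells, taken from other cells than those in which the mark was measured. Of all genes with both, 73.2% in control shRNA and 93.0% in shE2F1 cells had such an overlap, so the overlap does not set the members apart. It was partial at the stronger JARID2 peak, of which 43.7% in control shRNA and 66.7% in shE2F1 cells lay inside the E2F1 peak. The share inside was 74.3% at MTF2 in control shRNA and 91.1% at AEBP2 in shE2F1 cells. The control shRNA peaks of EZH2 and EED and the shE2F1 peak of EZH1 held no E2F1 summit of GSK126 cells. The 5 control shRNA peaks were 174 to 329 bp wide, where the median promoter peak of the list was 927 bp. The 8 shE2F1 peaks were 223 to 1508 bp wide, and 7 of them were narrower than the list's promoter median of 792.5 bp. The exception was EZH2, whose peak widened from 289 bp in control shRNA to 1508 bp in shE2F1 cells and then included the E2F1 summit.

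**Figure D5:**
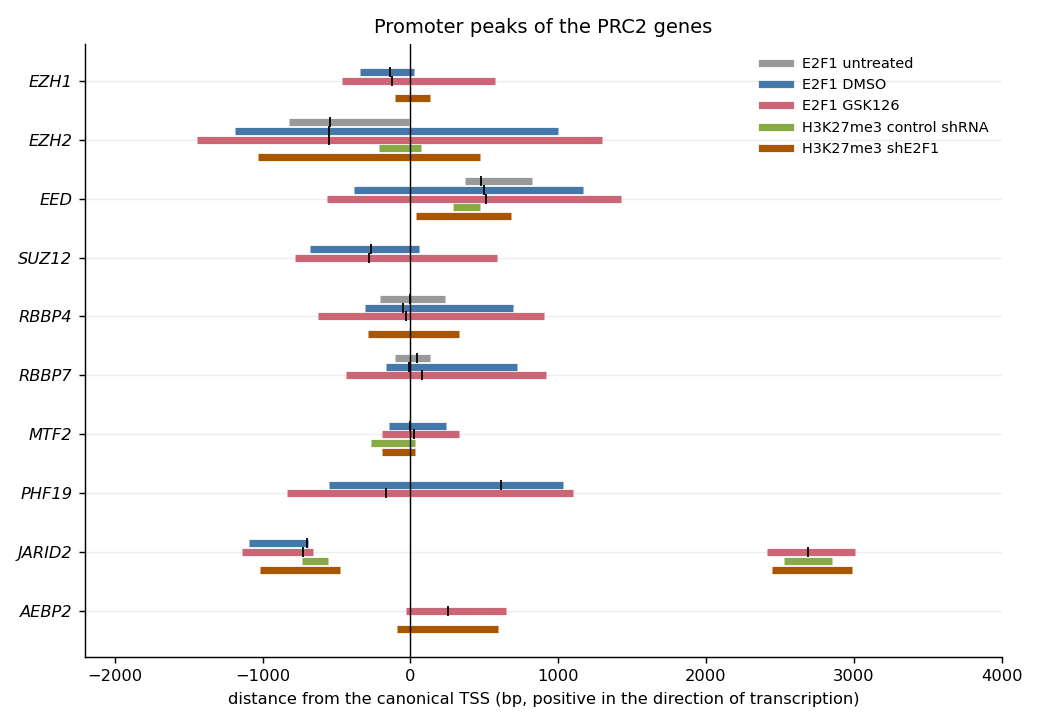
Extent of every promoter peak of the PRC2 genes within 4 kb downstream of the canonical TSS, by distance from that TSS in bp (positive in the direction of transcription); bars are peaks, coloured by list, and black ticks are E2F1 summits. E2F1 summits sit upstream at EZH2, EZH1, SUZ12 and the first JARID2 promoter and downstream at EED and AEBP2, and each H3K27me3 bar overlaps an E2F1 bar of GSK126 cells.

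Gene bodies of the PRC2 genes carried little H3K27me3. The median share of the gene body covered was 0.0596% in control shRNA and 0.255% in shE2F1 cells, beside 0.0% and 0.392% over all protein-coding genes. This share includes any part of a promoter peak that lies inside the gene. At EZH1, EZH2, RBBP4, MTF2 and JARID2 all covered bases came from the promoter peaks described above. A peak over the gene and off its promoters was found at 1 of 10 members in control shRNA cells (23.6% of genes) and at 2 of 10 in shE2F1 cells (26.2% of genes). AEBP2 was the member found in both, with 15 such peaks in control shRNA and 11 in shE2F1 cells, covering 2.29% and 2.53% of its 317 kb. EED was the other in shE2F1 cells, with 1 peak. The pseudogene RBBP4P5 had H3K27me3 at its start in shE2F1 cells, at a fold of 3.61.

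EZH2 was set beside the genes whose E2F1 pattern was nearest to its own. 215 genes had E2F1 and H3K27me3 promoter peaks in all 5 lists, as EZH2 had, and distance was taken over the log2 folds of the 3 E2F1 lists. CENPK, a kinetochore protein gene, and PPWD1, which share a promoter, were nearest at 0.29, with E2F1 folds of 31.8, 46.8 and 79.1 in untreated, DMSO and GSK126 cells. DEK, a chromatin protein, followed at 1.00, RBL1, the pocket protein p107, at 1.16 and TLCD3B at 1.20. H3K27me3 fold, which the distance did not use, was higher in shE2F1 than in control shRNA cells at these 5 genes, which hold 4 distinct peaks, and at 88.4% of the 215. It went from 4.31 to 8.57 at CENPK and PPWD1, 3.74 to 4.32 at DEK, 3.85 to 8.80 at RBL1 and 3.63 to 4.26 at TLCD3B.

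Among 45 other genes of the Polycomb system and its antagonists, E2F1 promoter peaks were listed at 3 in untreated, 26 in DMSO and 37 in GSK126 cells. These counts were 6.67%, 57.8% and 82.2% of the 45, beside 5.85%, 33.5% and 51.5% of all protein-coding genes. Of the 5 other PRC2 accessory genes 4 were bound in GSK126 cells, led by PHF1, a further paralogue of MTF2, at a fold of 25.9 and LCORL at 13.4. PHF1 was bound in untreated cells too, at 13.9. Of 23 genes of PRC1, the complex that ubiquitinates H2A, 18 were bound in GSK126 cells, led by L3MBTL2 (23.9) and PCGF6 (19.4). Of 8 genes of PR-DUB, the deubiquitinase that removes that mark, 6 were bound, led by ASXL1 (16.0) and BAP1 (13.3). Both H3K27 demethylase genes were bound, KDM6A at 11.0 and KDM6B at 5.88. All 7 H3K36 and H3K4 methyltransferase genes were bound, led by NSD2 (35.5), an H3K36 dimethyltransferase, and KMT2A (11.5). EZHIP, BMI1, PCGF1, PCGF3, CBX6, PHC1, ASXL3 and MBD5 had no E2F1 promoter peak in any list. The median log2 ratio of GSK126 over DMSO fold was 0.62 over the 26 of these genes with both peaks. H3K27me3 was listed at 10 of the 45 in control shRNA and 36 in shE2F1 cells, in shE2F1 only at 26 and in control shRNA only at 0. These shares were 22.2%, 80.0% and 57.8% for the mark in control shRNA, in shE2F1 and in shE2F1 only, beside 27.1%, 51.2% and 26.0% of all genes and 40%, 70% and 30% of the members.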

How the data were processed

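The members and gene lists were chosen with earlier results of these data known. Per the labels and the methods of the study, the authors sonicated chromatin for E2F1 (the methods give micrococcal nuclease for histone marks, the labels sonication), aligned paired reads to GRCh38 with Bowtie2 2.5.2 and called peaks with MACS2 2.2.9.1, in broad mode for H3K27me3. Which control was used is not given in the sources used here. The deposited lists give each peak a fold, a ratio of signal to local background, with −log10 p and −log10 q by the authors. The lowest −log10 q was 2.01 for E2F1 and 1.01 for H3K27me3. The deposited score was not used, and the deposited summit offset gave E2F1 summits.

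Genes came from GENCODE release 44, which is not the authors' annotation. Fragments at E2F1 summits were solved from fold and p, within a relative error of 2e-05 in 31035 of 31035 peaks, with scipy 1.17.1. The scripts were tested on simulated data. Named genes were all members, genes sharing a promoter, pseudogenes, the 2 strongest E2F1 genes of each further list and the genes lacking E2F1, and the 5 nearest to EZH2. Motif windows came from hg38. Alternatives varied the q threshold, promoter window, TSS set, overlap rule, ratio scale and motif.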

Additional observations from a re-analysis of the deposited data

How the results depend on the processing

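Of 67 counts and medians recomputed under the listed alternatives, 56 stayed within 1.5 times the count or within the counting interval. All 35 log2 ratios of single members did, and none of these ratios changed sign. A count can stay while its members change, as the 3 gained genes did where −log10 q had to reach 5. JARID2 was scored as staying although its log2 ratio went from 1.03 to 0.40 with overlapping peaks. Where −log10 q had to reach 5, the mark was at 1 member in control shRNA (2.60% of genes) and 4 in shE2F1 (9.19% of genes). A 2-fold rise under GSK126 was left at 1 member, EZH1, with overlapping peaks and again at that q threshold, which removed the JARID2 DMSO peak. On the scale of summit fragments the count stayed at 2, but the members were EZH1 (log2 ratio 1.25) and SUZ12 (1.13). JARID2 had 0.81 and EZH2 0.997 on that scale, where the upper quartile over all genes was 0.95. The median covered share of gene bodies with −log10 q at 2 or above was 0.0% (control shRNA) and 0.167% (shE2F1), and it was 0.0905% and 0.441% with 1000 bp added on either side. With TTTSSCGC, members with a motif numbered 0 in untreated and 3 in DMSO (22.0% and 10.4% of promoter peaks), and anywhere in the peak 9 in DMSO (55.4%). E2F1 counts kept within 1.5 times under every promoter definition tried. Each condition had 1 library, so neither leaving out a library nor a paired fit was possible, and intervals cover counting error only.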
